A study of Mus musculus with 2 samples.

Results

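The cells described here are the goblet cells of 2 single-cell libraries labelled as enterocytes of the mouse ileum. They were chosen by their own transcripts. A cell was taken when the summed UMIs (unique transcript counts) of Zg16, Fcgbp, Clca1, Muc2 and Tff3 made up at least 1% of its UMIs and Lyz1, a Paneth cell gene, made up less than 0.5%. This gave 900 of 5408 cells, 521 of 3402 in the WT library and 379 of 2006 in the library of mice without TNFAIP8, the protein the study calls TIPE0. The summed share of the 5 genes is called the mucus share below. Because these genes chose the cells, their levels against other cells are a description and not a finding.

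Goblet cells are secretory cells of the intestinal lining that store mucus in granules and release it onto the epithelial surface. MUC2 is the gel-forming mucin of the gut, FCGBP and CLCA1 are secreted with it, TFF3 is a trefoil peptide of mucus, and ZG16 is a lectin that binds bacteria. The cells arise in the crypt from progenitors that express the transcription factor Atoh1, and they fill with mucus as they move up toward the villus.

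Both libraries came from C57BL/6 mice aged 8 weeks, 1 library from wild-type (WT) and 1 from Tipe0-/- mice (TNFAIP8-/- in the labels, TKO in the plots). A plot legend of the study states for the single-cell data that 3 mice per genotype were pooled, and no Cre driver is named for the allele. The labels speak of enteroids digested with collagenase and dispase, whereas the methods speak of isolated enterocytes digested with DNase and dispase, so the starting material is uncertain. The study asked how loss of TIPE0 alters the cell populations of the ileum, and here its question is put to goblet cells alone. With 1 library per genotype there is no replicate, so no test was made, and genotype, mice, digestion and sequencing run cannot be told apart. Differences between libraries are given as values with exact 95% intervals of counting error only.

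The WT library held 38127808 UMIs and the Tipe0-/- library 23897126. Goblet cells had a median of 7805 UMIs in WT and 7939 in Tipe0-/-, close to the 7747 and 7174 of all other cells. Mitochondrial transcripts made up 6.53% of goblet UMIs in WT and 8.10% in Tipe0-/-, against 6.60% and 8.66% in other cells. The libraries shared 9 cell barcodes, and none of them was a goblet cell in both. Tnfaip8 itself had 165 UMIs in 130 WT goblet cells (30.8 CPM, counts per 1000000 UMIs of the summed cells) and 33 UMIs in 30 Tipe0-/- goblet cells (7.33 CPM), a log2 ratio of -2.05 (-2.66 to -1.52). Transcripts of the targeted gene were therefore fewer but present in the Tipe0-/- library. Which exons the allele lacks is not given in the sources used here, so counts of transcript ends do not by themselves check the label.

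Goblet cells made up 15.3% of the WT library, with a Clopper-Pearson interval from 14.1 to 16.6%. In Tipe0-/- they made up 18.9%, with an interval from 17.2 to 20.7%. The library without TIPE0 thus had 3.58 percentage points more (Newcombe interval 1.51 to 5.70). It was 2.05 points at a mucus threshold of 5% and 6.73 points without the cells in which Paneth genes other than Ang4 reached 1% of UMIs, so its size depends on the rule. A share of captured cells also depends on how the epithelium was dissociated, which was not measured, and on the starting material.

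The mucus share was a continuum without a gap at the threshold. Within the band just above it, up to 5/4 of the threshold, lay 44 WT and 34 Tipe0-/- cells, and within the band just below it, down to 3/4 of the threshold, lay 50 and 50 cells. The highest cells just outside had 0.9996% and 0.997%. Among members the median mucus share was 3.98% in WT, with quartiles of 1.87% and 11.5%, and 4.01% in Tipe0-/-, with quartiles of 1.92% and 13.5%. The fullest cells reached 49.1% and 56.6%, whereas the median of all other cells was 0.0222% and 0.0233%. The Lyz1 limit removed 2 WT cells and 3 Tipe0-/- cells.

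**Figure D1:**
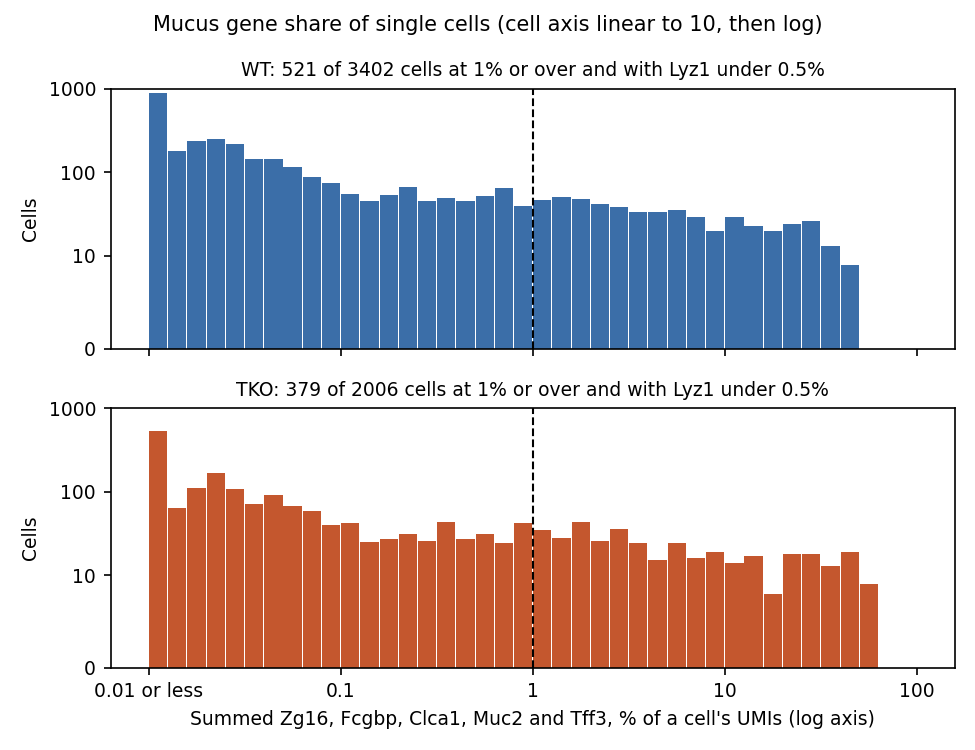
Number of cells (vertical axis, linear to 10 and logarithmic above) by mucus share in percent of a cell's UMIs (horizontal log axis) for the WT and TKO libraries. The dashed line is the 1% threshold, and cells were spread on both sides of it up to 49.1% in WT and 56.6% in TKO.

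The members shared goblet cell transcripts, but many also carried proliferation transcripts. Each cell was thinned at random to 3000 UMIs so that shares could be compared across depths. Spink4, a peptide of goblet cell granules that the rule did not use, was then seen in 99.8% of WT and 98.9% of Tipe0-/- members, against 53.3% and 42.0% of all other cells. Agr2, a disulfide isomerase needed to make MUC2, was seen in 96.5% and 96.0%, against 22.9% and 19.7%, and Atoh1 in 28.4% and 39.8%, against 3.19% and 3.38%. These genes were thus frequent in the members but not limited to them. The stem cell receptor Lgr5 was seen in 0.96% and 1.85%. Among members with a mucus share of 1 to 2%, however, 51.7% of 145 WT cells and 59.6% of 104 Tipe0-/- cells carried a UMI of the proliferation genes Mki67 or Top2a, above the 38.9% and 41.5% of all other cells. At a mucus share of 15% and over it was 1.01% of 99 WT cells and 0 of 92 Tipe0-/- cells, which allows a share of up to 3.26%. The members thus include many cells with proliferation transcripts and are called goblet cells here, not mature goblet cells. Members at 1 to 2% had medians of 13215 UMIs in WT and 16990.5 in Tipe0-/-, against 7747 and 7174 in all other cells. No doublet caller was used, and the part of doublets was not tested.

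Bcas1, Agr2, Klk1, Tpsg1 and S100a6 had the highest ratios over all other cells beyond the rule genes, among genes at 100 CPM or more in goblet cells of both libraries. Below that level, Ido1 had log2 ratios of 7.70 in WT and 7.55 in Tipe0-/- and Sval1 6.18 and 6.12. Of 10428 genes with enough UMIs, 266 were at least 2-fold higher in goblet cells of both libraries (2.55%) and 147 at least 2-fold lower (1.41%). These genes come from the cells that the rule picked and are a description. Agr2 reached 6868 CPM in WT and 4289 CPM in Tipe0-/- goblet cells, against 413 and 289 CPM in other cells. Spink4 was at 22249 and 17236 CPM, against 5047 and 3585 CPM, and so was also plentiful outside the members. Klk1, a tissue kallikrein protease, was at 415 and 319 CPM in goblet cells and at 20.7 and 23 CPM in other cells. Bcas1 had log2 ratios of 4.47 in WT and 4.24 in Tipe0-/-, Tpsg1, a transmembrane tryptase, 3.58 and 3.75, and Hepacam2, an adhesion protein, 3.19 and 3.21. Guca2a, which encodes the hormone guanylin that drives chloride and fluid secretion, stood at 4732 and 3300 CPM and the chemokine Ccl6 at 1183 and 1057 CPM. All of these were higher in goblet cells of both libraries.

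**Figure D2:**
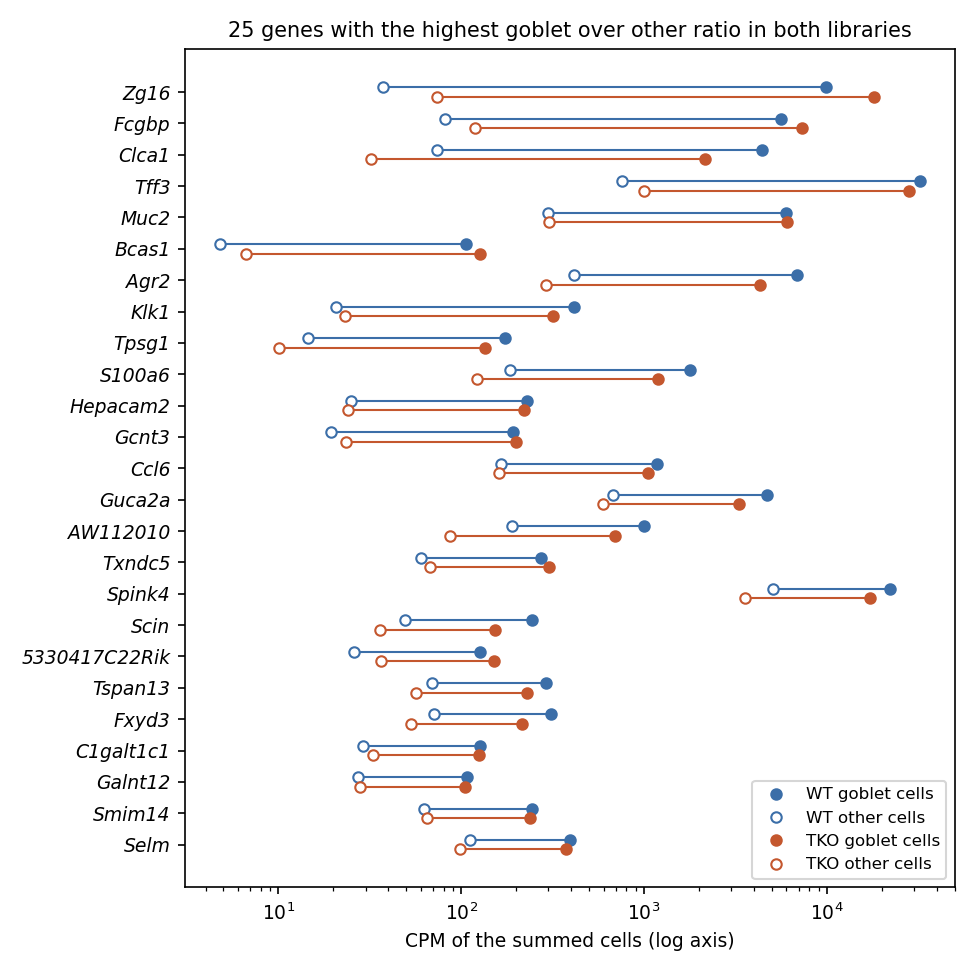
CPM (log axis) of the 25 genes with the highest goblet over other ratio among genes at 100 CPM or more in goblet cells of both libraries, in goblet cells (filled) and other cells (open) of the WT and TKO libraries, each point being 1 sum over cells. In every row both filled points lie to the right of both open points, and Zg16 is at 9848 CPM in WT and 18093 CPM in TKO goblet cells.

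By role, 13 of 24 measured mucus and granule products, 7 of 16 goblet transcription factors and 15 of 43 genes of mucin O-glycosylation were at least 2-fold higher in goblet cells of both libraries, beside the background of 2.55%. Among the transcription factors, the secretory lineage factor Atoh1 had log2 ratios of 2.39 in WT and 2.64 in Tipe0-/-, and Spdef, which drives goblet cell maturation, 2.40 and 2.92. Klf4, a factor of terminal differentiation, had 1.37 and 1.44. The glycosylation genes included Gcnt3, which makes branched mucin glycans, at 3.29 and 3.08, C1galt1c1, the chaperone of core O-glycan synthesis, at 2.12 and 1.93, and Galnt12, which adds the initial sugar, at 1.99 and 1.91. Of the granule exocytosis and ion transport genes, 11 of 29 passed, among them Scin, an actin-severing protein, at 2.32 and 2.08. For protein folding in the endoplasmic reticulum, 7 of 40 genes passed, which included Txndc5 at 2.20 and 2.15 and Fkbp11 (110 and 56.2 CPM, against 27.6 and 14.4 CPM in other cells), as did 5 of 60 general secretory pathway genes. On the other side, 17 of 22 Paneth, 10 of 14 enteroendocrine and 7 of 12 stem cell genes were at least 2-fold lower, beside 1.41% of all genes.

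The rule genes did not make up the mucus share in the same proportions in the 2 libraries. Zg16 (chr7:127050156-127087328, GRCm38) was at 9848 CPM in WT and 18093 CPM in Tipe0-/- goblet cells, a log2 ratio of 0.88 (0.86 to 0.89). Clca1 (chr3:145003817-145032776) was at 4405 and 2155 CPM, a log2 ratio of -1.03 (-1.066 to -0.997). Their ratios pointed in opposite directions. Muc2 differed little, with 5954 and 6052 CPM, and Tff3, the most abundant of the 5, was at 32204 and 28284 CPM. Fcgbp was at 5598 and 7324 CPM. Zg16 therefore made up 17.0% of the mucus UMIs in WT and 29.2% in Tipe0-/-, and Clca1 7.59% and 3.48%, while the sum was 58008 and 61907 CPM. When Zg16 was left out of the rule, 14.99% of WT and 18.4% of Tipe0-/- cells were members.

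The comparison of goblet cells between the libraries covered 9022 genes. The median log2 ratio of Tipe0-/- over WT was 0.14 in goblet cells and 0.15 in all other cells, so the ratios below stand against that shift. At least 2-fold higher in Tipe0-/- were 203 genes (2.25%) and at least 2-fold lower 141 (1.56%). The balance depends on the scale, since with the libraries set to equal medians 116 were higher and 183 lower, and at a mucus threshold of 0.5% the counts were 140 and 175. Among the 1359 genes at 100 CPM or more in either library the count was 2 higher and 30 lower. Most of the 203 higher and of the 141 lower genes were thus below that level.

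**Figure D3:**
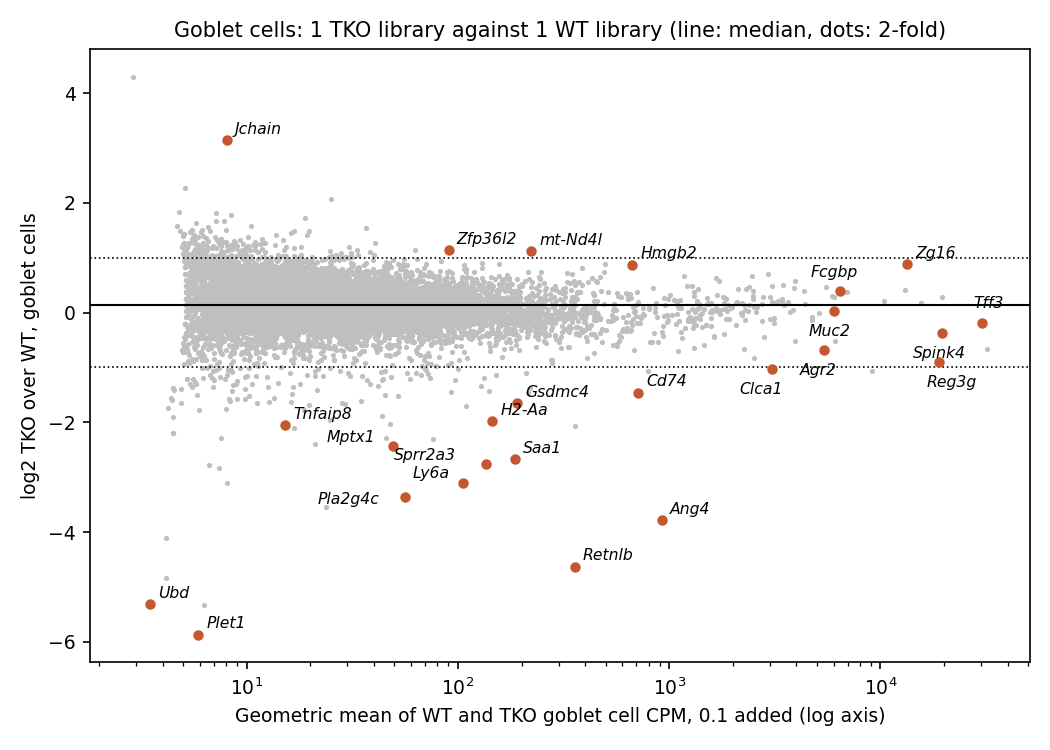
Log2 ratio of TKO over WT goblet cell CPM (vertical axis) against the geometric mean CPM (log axis) for each tested gene, with the median of 0.14 as a line and dotted lines at 2-fold. Retnlb and Ang4 lie at -4.63 and -3.78, while Muc2, Spink4 and Tff3 are inside the 2-fold lines.

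Retnlb (chr16:48816856-48818892) encodes RELMb, a goblet cell protein secreted in type 2 immunity that binds bacterial membranes. It was at 1776 CPM in WT goblet cells and at 71.5 CPM in Tipe0-/- goblet cells, a log2 ratio of -4.63 (-4.80 to -4.47). In WT the UMIs were spread over 403 of 521 cells, with 2.75% of them in the top cell. In Tipe0-/- 47 of 379 cells had a UMI, and 1 cell held 87 of the 322 UMIs. Other cells also showed the difference at a lower level, with 136 and 17.3 CPM. The goblet ratio was -4.64, -3.57, -5.18 and -6.02 in the 4 mucus ranges, so it did not rest on cells of one fullness.

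Ang4 (chr14:51763878-51773590), an antimicrobial ribonuclease made by Paneth and goblet cells, was at 3419 CPM in WT and 248 CPM in Tipe0-/- goblet cells, a log2 ratio of -3.78 (-3.87 to -3.70). In other cells it was at 2073 and 904 CPM, a log2 ratio of -1.20. WT goblet cells therefore held more Ang4 than the other WT cells, and Tipe0-/- goblet cells less than the other Tipe0-/- cells. Ang4 has near-identical neighbours, and how reads were divided among them is uncertain.

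Markers of Paneth cells moved with both genes. The 24 Paneth genes summed to 20424 CPM in WT and 8899 CPM in Tipe0-/- goblet cells (122808 and 92442 CPM in other cells). Ang4 is on that list, so part of each sum is Ang4 itself, at 3419 and 248 CPM in goblet cells. The most abundant, the defensin gene Defa24, was at 13212 and 6291 CPM. All 24 had a UMI in WT, and Ang5 and Ang6 were at 0 in Tipe0-/-. Paneth genes, Ang4 included, reached 1% of the UMIs in 243 WT goblet cells (46.6%) and 58 Tipe0-/- goblet cells (15.3%). The part of Paneth transcripts in the results for Retnlb and Ang4 was not tested. In cells with at least 1% Lyz1 there were 5.74 Ang4 UMIs per 100 Defa24 UMIs in WT and 3.96 in Tipe0-/-, against 25.9 and 3.95 in goblet cells, so the proportions were apart in WT and close in Tipe0-/-. For Retnlb the corresponding values were 0.18 and 0.05, against 13.4 and 1.14 in goblet cells, apart in both libraries. Without the cells in which Paneth genes other than Ang4 reached 1%, which left 324 WT and 326 Tipe0-/- cells, the log2 ratio was -4.50 for Retnlb and -3.17 for Ang4. That of Mptx1, a pentraxin on the Paneth list, went from -2.44 to -1.11. Mptx1 counts toward the genes that chose the removed cells, so this change is a description only. Its top 5 goblet cells held 45.0% of its UMIs in WT and 69.5% in Tipe0-/-. Mptx1 was at 115 CPM in WT goblet cells but 11.7 CPM in WT cells with at least 1% Lyz1. The defensin genes are a family of near-identical copies, and their single values are uncertain.

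Of 23 measured antimicrobial and host defence genes, 12 were at least 2-fold lower in Tipe0-/- goblet cells and 2 higher, beside 1.56% and 2.25% of all genes. Their median log2 ratio was -1.03, beside 0.14 for all genes. Of the 2 higher genes, the antibody gene Jchain had 106 of its 107 Tipe0-/- goblet UMIs in 1 cell. The list was written with these libraries' results known, so its direction is no independent evidence. The lectins Reg3b and Reg3g, which act on bacteria, were the most abundant, Reg3b at 40345 and 25343 CPM with a log2 ratio of -0.67 and Reg3g at 25984 and 13832 CPM with -0.91. Neither passed 2-fold, and other cells had ratios of -0.68 and -0.91. Saa1, an acute phase protein, was at 468 and 73.3 CPM (-2.67) and the phospholipase gene Pla2g4c at 180 and 17.3 CPM (-3.37). Ly6a, which encodes the surface protein Sca-1, was at 309 and 36.0 CPM, a log2 ratio of -3.10 in goblet cells and -2.77 in other cells. Plet1, an epithelial surface protein, had 243 UMIs in WT and 3 in Tipe0-/- goblet cells. These genes were lower in both compartments, not in goblet cells alone, and the difference between compartments was not tested.

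MHC class II genes were lower in Tipe0-/- goblet cells as a group. The heterodimers of class II present peptides to helper T cells, CD74 is their chaperone, and H2-DM loads the peptide. Of 8 measured genes, 6 were at least 2-fold lower and none higher, with a median log2 ratio of -1.36, beside 1.56% of all genes. Cd74 was at 1177 CPM in WT and 428 CPM in Tipe0-/- (-1.46, -1.53 to -1.38). H2-Aa was at 288 and 72.8 CPM (-1.98), H2-Ab1 at 353 and 136 CPM (-1.38), H2-Eb1 at 205 and 81.0 CPM (-1.34) and H2-DMb1 at 52.0 and 16.2 CPM (-1.68). H2-DMa was the remaining one of the 6. The lysosomal enzymes of the list were within 2-fold, with log2 ratios of -0.30 (-0.55 to -0.06) for Ctss and 0.01 (-0.18 to 0.20) for Ifi30. The intervals of 7 of the 8 genes, Ctss included, lay below the median of all genes, beside 1743 of all 9022 genes. Cd74 was at its highest in cells of low mucus share, from 1427 and 578 CPM at 1 to 2% down to 611 and 173 CPM at 15% and over, and was lower in Tipe0-/- in each range. Other cells had a Cd74 ratio of -1.22. Lymphocyte genes were also lower in Tipe0-/- goblet cells, with sums of 177 and 79.3 CPM, and their part was not tested.

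The stretch of 150 bases before the start is shown for the class II genes that hold a CCAAT box, because class II promoters are known for a shared set of elements that includes one. Of the 6 genes, 4 had a RefSeq promoter entry, and 3 of these held ATTGG, the box read on the opposite strand (CCAAT). Both strands were searched. In H2-Aa it began 48 bases before the start, in H2-Eb1 59 bases, and 35 bases on the other strand, and in H2-DMb1 61 bases. The starts are those of RefSeq. GENCODE begins H2-DMb1 at 34153072, inside the printed stretch and before the box, so by that annotation the box lies within the gene. Of 32851 promoters of the same length 24.5% held these letters. Sequences are from RefSeq on GRCm38.p6, written 5′ to 3′ along the strand of the gene with the box in capitals. H2-Aa lies at chr17:34287824-34287973 on the minus strand, H2-Eb1 at chr17:34305717-34305866 and H2-DMb1 at chr17:34153041-34153190 on the plus strand.
H2-Aa: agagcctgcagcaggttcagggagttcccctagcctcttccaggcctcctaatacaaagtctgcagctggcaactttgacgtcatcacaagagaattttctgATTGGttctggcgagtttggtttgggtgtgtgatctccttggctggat
H2-Eb1: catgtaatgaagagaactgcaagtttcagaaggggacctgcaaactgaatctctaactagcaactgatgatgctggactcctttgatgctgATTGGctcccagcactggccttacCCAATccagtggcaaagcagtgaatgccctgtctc
H2-DMb1: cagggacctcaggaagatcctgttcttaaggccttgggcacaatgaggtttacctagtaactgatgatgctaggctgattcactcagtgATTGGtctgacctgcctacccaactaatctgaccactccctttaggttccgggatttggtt

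Interferon response genes were also lower as a group, with 14 of 23 at least 2-fold lower in Tipe0-/- goblet cells, none higher, and a median log2 ratio of -1.22, beside 1.56% of all genes. Bst2, the antiviral tetherin, was at 111 and 48.6 CPM (-1.19). Rsad2, the antiviral viperin, was at 23.7 and 2.66 CPM (-3.10), whereas in other cells its ratio was -0.92. Ubd, a ubiquitin-like modifier induced by interferon, had 118 UMIs in 35 WT goblet cells and 2 UMIs in 2 Tipe0-/- goblet cells. The most abundant gene of the list, Ifi27l2b, was at 489 and 341 CPM (-0.52) and did not pass 2-fold. For class I presentation, 3 of 17 genes passed (median -0.64), Tap1, the peptide transporter, at -1.34 among them. B2m, the light chain of class I, was at 1646 and 1053 CPM (-0.64). H2-Q7 was at 34.3 and 9.99 CPM, but genes of its family are close copies and reads may be shared between them.

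Genes linked to IL-4 and IL-13, the cytokines of type 2 immunity that act on goblet cells, were lower or near the median of all genes. The gasdermins Gsdmc4 (336 and 107 CPM, -1.65), Gsdmc2 (197 and 60.8 CPM, -1.70) and Gsdmc3 (76.2 and 26.9 CPM, -1.50) were lower, and their sequences are close enough to share reads. At a mucus share of 5 to 15% their ratios were -0.54, -0.09 and -0.09, so the 2-fold difference was not seen in that range. The signalling genes Stat6 and Jak1 had log2 ratios of 0.08 and 0.06. In all, 4 of 10 genes of the list were at least 2-fold lower, the other one being the inhibitor Socs1, beside 1.56% of all genes. The list's median log2 ratio was -0.42. Of the 10 genes 0 lay above the median of all genes, and 7 had an interval below it, beside 1743 of all 9022 genes.

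In 5 lists of mucus production beyond the rule genes no gene reached a 2-fold difference. None of 22 mucus and granule products, 16 transcription factors, 39 endoplasmic reticulum genes, 60 secretory pathway genes or 29 exocytosis genes was 2-fold apart, and their median log2 ratios were -0.22, 0.13, -0.22, -0.05 and -0.11. Taken 1 list at a time, counts of 0 are near the background of 2.25% higher and 1.56% lower. The 5 lists together were not compared with it. Smaller differences were mostly toward lower values among products, reticulum genes and secretory pathway genes. Intervals lay below the median of all genes for 16 of the 22 products and 24 of the 39 reticulum genes. The same held for 35 of the 60 secretory pathway genes, beside 1743 of all 9022 genes. Counting intervals narrow as UMIs rise, so abundant genes leave the median more readily. The share over all genes is not matched for abundance, so the excess was not tested. Of the 16 transcription factors 5 lay below it and 4 above, and of the 29 exocytosis genes 13 below and 4 above. Within 2-fold, Agr2 was lower in Tipe0-/-, with a log2 ratio of -0.68 (-0.70 to -0.65), as were Spink4 at -0.37, Guca2a at -0.52 and Fkbp11 at -0.97. Hspa5 and Hsp90b1, chaperones that increase in the unfolded protein response, had 0.25 and 0.27. Atoh1 was at 85.0 and 121 CPM (0.50, 0.32 to 0.69), and Spdef at 64.1 and 52.6 CPM (-0.28, -0.53 to -0.04). The ion transporters Cftr and Slc12a2, which set the fluid in which mucus unfolds, had 0.80 and 0.74. A ratio under 2-fold does not show that levels were equal.

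Mucin O-glycosylation had 4 of 43 genes at least 2-fold lower, beside 1.56% of all genes, and 1 higher, which is near the background of 2.25%. Fut2, the fucosyltransferase that builds H antigen on gut mucins, was at 56.9 and 24.2 CPM, a log2 ratio of -1.23 (-1.56 to -0.91), and at -1.46 in other cells. B3galt5, a galactosyltransferase, was at 9.51 and 1.998 CPM (-2.19). St3gal3 and St6galnac6, both sialyltransferases, were the other lower genes. The gene that was higher, St3gal1, was at 3.36 and 7.10 CPM, a low level. Galnt12, C1galt1c1 and Gcnt3 had log2 ratios of -0.03, -0.02 and 0.07.

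Genes higher in Tipe0-/- goblet cells were fewer among the abundant genes and had smaller ratios. Zfp36l2, an RNA-binding protein that speeds mRNA decay, was at 60.8 and 134 CPM (1.14, 0.94 to 1.34), and mt-Nd4l, a mitochondrial gene, at 150 and 327 CPM (1.12), with a ratio of 1.16 in other cells. Hmgb2, a chromatin protein of dividing cells, was at 494 and 904 CPM (0.87) and the mitochondrial enzyme gene Oat at 367 and 672 CPM (0.88). Among 21 cycling genes 1 was 2-fold higher, Mcm2 at 1.01, which is near the background of 2.25%, but the list's median was 0.46. All 21 were above the median of all genes, and 13 had an interval above it, beside 1381 of all 9022 genes. Of 13 Notch and Wnt genes 3 were 2-fold higher, Myc at 11.9 and 27.3 CPM (1.19), Znrf3 and Hes1, beside 2.25% of all genes, and the list's median was 0.45. The stem cell list had 2 of 9 higher, Smoc2 (1.05) and Cdca7 (1.04), beside the same 2.25%. At a mucus threshold of 5% Smoc2 was at -0.26 and Myc at -0.48, and Smoc2 was at -0.38 in the range of 5 to 15%, so their direction depends on the cells taken. Dll1, the Notch ligand of secretory progenitors, was at 25.2 and 42.9 CPM (0.77, 0.44 to 1.10). Hmgb2 and the cycling gene Top2a were also highest in cells of low mucus share, as the next values show.

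Along the mucus share, Top2a and Hmgb2 were lower and Krt20, S100a6 and Klf4 higher in fuller cells of both libraries. These genes were picked, and their trend was not computed for whole lists. As the rule genes define the ranges, their own trend carries no information, and since CPM is a share, a fuller cell has less room for every other gene. Top2a went from 298 and 358 CPM at 1 to 2% to 1.84 and 4.11 CPM at 15% and over in WT and Tipe0-/-. Hmgb2 went from 831 and 1214 CPM to 42.3 and 39.0 CPM. In the other direction Krt20, a keratin of differentiated villus cells, went from 213 and 109 CPM to 964 and 881 CPM, and the calcium-binding protein gene S100a6 from 526 and 289 CPM to 7232 and 6055 CPM. Klf4 went from 128 and 106 CPM to 567 and 647 CPM, whereas Spdef stayed between 42.1 and 82.1 CPM throughout. The enterocyte gene S100g had no common trend, with 19.0, 67.9, 53.7 and 25.8 CPM from the lowest to the highest range in WT and 38.3, 44.6, 137 and 228 CPM in Tipe0-/-. Cells of low mucus share were also larger libraries, with a median of 13215 UMIs in WT and 16990.5 in Tipe0-/- at 1 to 2% and 5184 and 5024 at 15% and over.

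Between the libraries, the share of goblet cells at 15% and over was 19.0% in WT, with an interval from 15.7 to 22.6%, and 24.3% in Tipe0-/-, where it ran from 20.04 to 28.9%, and the 2 intervals overlap. Some genes had ratios that depended on the range. Apoa1, an enterocyte apolipoprotein, was lower in Tipe0-/- at 1 to 2% (232 and 36.2 CPM) and at 2 to 5% (608 and 128 CPM) but higher at 5 to 15% (963 and 1458 CPM) and at 15% and over (1925 and 2658 CPM). Krt20 was lower in the 2 lower ranges (-0.96 and -1.45) and near equal in the others (-0.02 and -0.13). Dll1 had its largest ratio at 15% and over, with 9.20 and 41.1 CPM (2.06, 0.70 to 3.93). That value rests on 5 and 20 UMIs, and its interval overlaps those of the other ranges. Ang4, Retnlb, Cd74, H2-Aa, Ly6a and Saa1 were lower in Tipe0-/- in all 4 ranges.

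**Figure D4:**
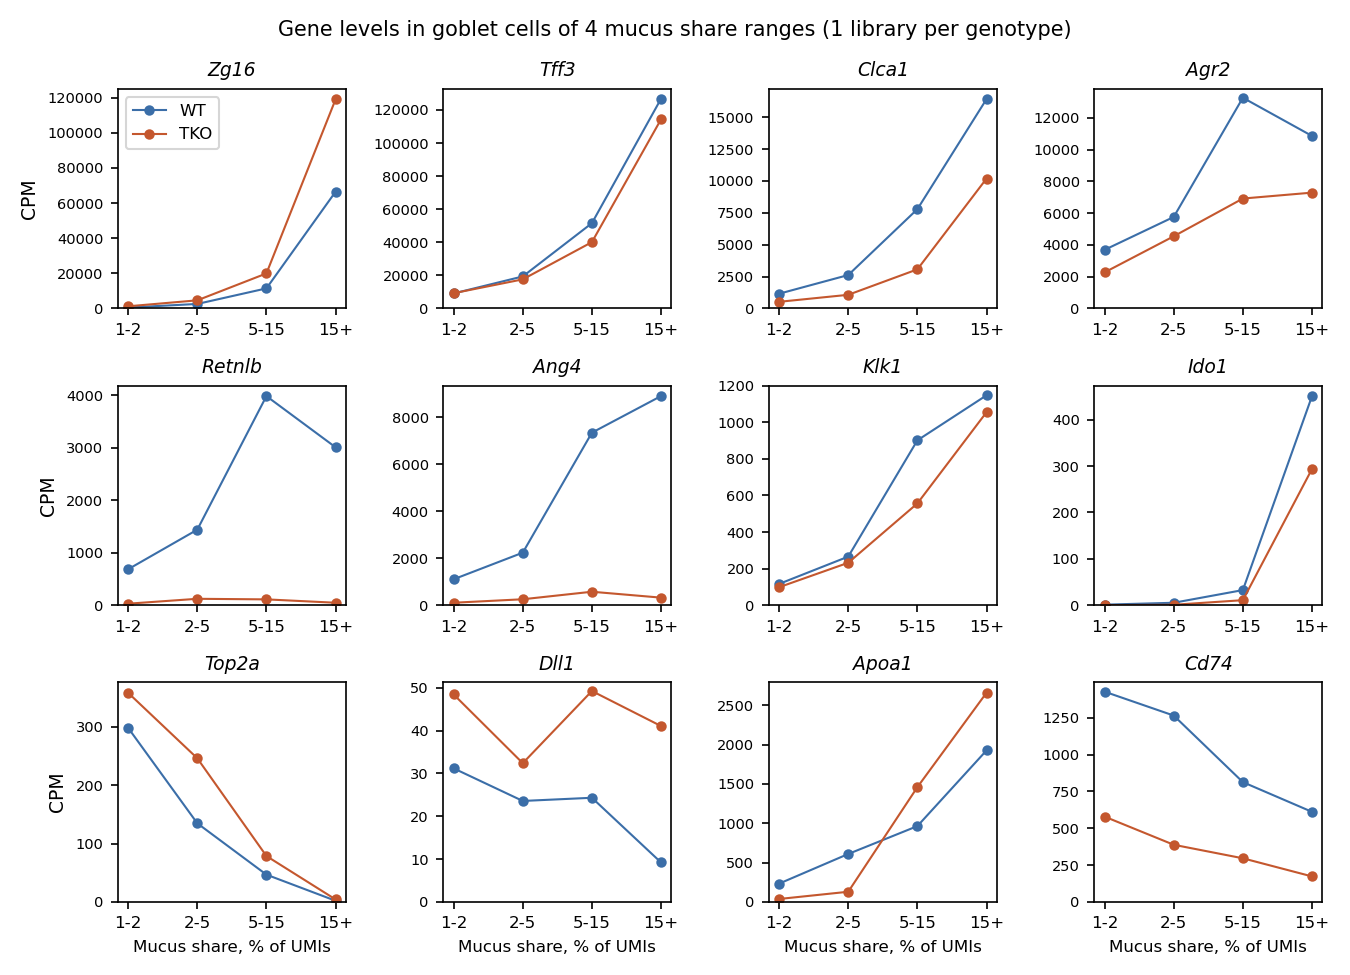
CPM (linear axis from 0) of 12 genes in goblet cells of 4 mucus share ranges (percent of UMIs) for WT and TKO, each point 1 sum over the cells of a range. Retnlb and Ang4 are near the axis in TKO at every range, and Top2a falls to 1.84 CPM in WT and 4.11 CPM in TKO at 15% and over.

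Retnlb, Klk1, Sval1 and Ido1 divided the goblet cells. A cell was called positive with at least 2 UMIs after thinning to 3000. Retnlb was positive in 266 of 521 WT goblet cells (51.1%, 46.7 to 55.4%) and 19 of 379 Tipe0-/- goblet cells (5.01%, 3.04 to 7.72%). Its share was apart by -46.0 percentage points, with an interval from -50.7 to -41.0, and by -29.7 (-35.1 to -24.1) without the cells rich in Paneth transcripts. Without thinning, a UMI was seen in 77.4% and 12.4%. Klk1 was positive in 38.2% and 30.9% (difference -7.33, -13.5 to -1.01), but with at least 1 UMI in 57.6% and 58.6%, so its order depends on the number of UMIs asked for. Sval1, a secreted protein gene, was positive in 44 WT (8.45%) and 17 Tipe0-/- cells (4.49%), a difference of -3.96 (-7.13 to -0.64). Without the cells rich in Paneth transcripts the difference was -2.33 (-9.25 to 4.62) for Klk1 and -2.50 (-6.20 to 1.09) for Sval1, and both intervals then include 0. At a mucus threshold of 5% these differences were -15.9 and -8.79. Ido1, the enzyme that breaks down tryptophan and is induced by interferon, was positive in 33 (6.33%, 4.40 to 8.78%) and 24 cells (6.33%, 4.10 to 9.28%), and the interval of the difference ran from -3.17 to 3.42. Its summed level was nevertheless lower in Tipe0-/- goblet cells, at 53.7 and 33.7 CPM, a log2 ratio of -0.67 (-0.96 to -0.38). The ratio was -1.54 at a mucus share of 5 to 15% and -0.62 at 15% and over. As a mean of each cell's CPM it was -0.20, outside that interval, so its size depends on how the cells are weighted. Unthinned, at least 1 UMI was seen in 80.8% and 82.1% for Klk1, 25.3% and 18.5% for Sval1 and 15.2% and 12.7% for Ido1.

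As a reference for free RNA, thinned cells with at least 10% enterocyte transcripts and a mucus share below 0.5% were used. None of the 4 genes had a UMI in them, and so none was positive. This was 0 of 33 in WT (median 5001 UMIs), which allows a share of up to 9.09%, and 0 of 69 in Tipe0-/- (5487 UMIs), up to 4.35%. The limit on mucus share left out cells with more goblet RNA beforehand, so these counts are a weak measure of free goblet RNA. The same cells held Defa24 at 1287 and 374 CPM. In all non-goblet cells Retnlb was positive in 4.37% and 0.55%, Klk1 in 0.24% and 0.06%, and Sval1 and Ido1 in 0 of 2881, which allows up to 0.10%, and 0 of 1627, up to 0.18%. In both libraries the positive share of goblet cells was above that of all non-goblet cells for each of the 4 genes. Against the enterocyte-rich cells the reading depends on the UMIs asked for. With at least 1 UMI, Sval1 was seen in 16.7% and Ido1 in 11.9% of WT goblet cells, above the limit of 9.09%, but with 2 UMIs both were below it. In Tipe0-/- goblet cells Retnlb was seen in 7.92% and Sval1 in 10.6% with at least 1 UMI, above 4.35%. With 2 UMIs both were close to it, at 5.01% and 4.49%. The exact upper limits of these counts of 0 were higher, 10.6% in WT and 5.21% in Tipe0-/-. With 2 UMIs both Tipe0-/- shares lay below that exact limit.

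**Figure D5:**
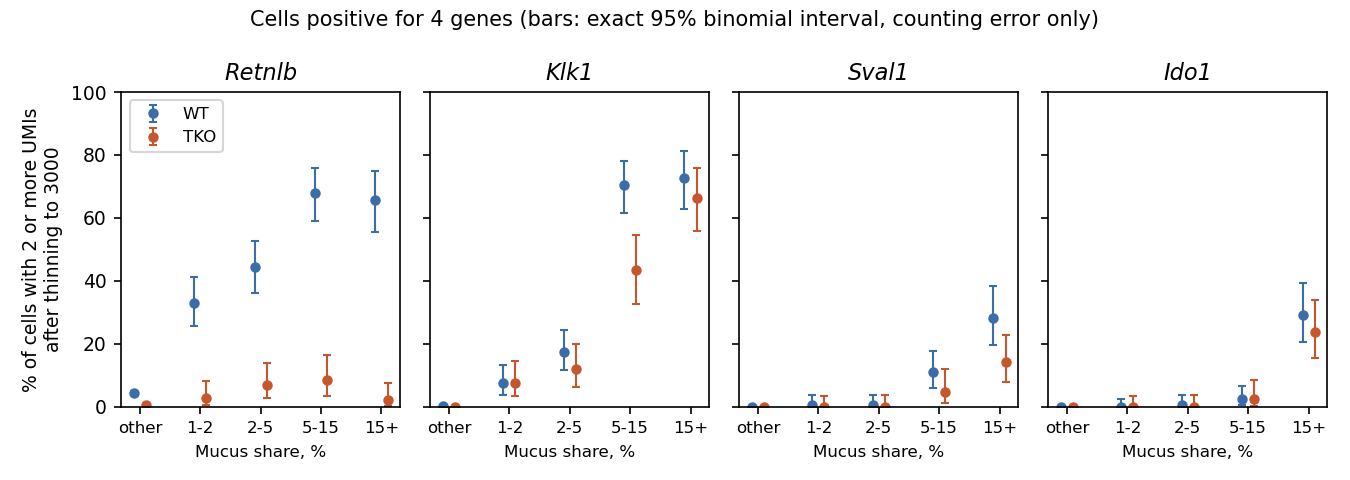
Percent of cells with at least 2 UMIs after thinning (vertical axis) in other cells and in 4 mucus share ranges, WT and TKO, with exact 95% intervals of counting error. Retnlb is high in WT from the lowest range (33.1%) on and at most 8.43% in TKO, and Ido1 is at 29.3% and 23.9% at 15% and over and near 0 below it.

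The 4 genes began at different mucus shares. Retnlb in WT was positive in 33.1%, 44.3%, 68.0% and 65.7% of cells from the lowest range to the highest, and in Tipe0-/- in 2.88%, 7%, 8.43% and 2.17%. Klk1 went from 7.59% to 72.7% in WT and from 7.69% to 66.3% in Tipe0-/-, with the widest gap at 5 to 15% (70.3% and 43.4%). Sval1 was at 28.3% and 14.1% at 15% and over and at most 0.69% below 5%. Ido1 was at 29.3% and 23.9% in the fullest cells and at 2.34% and 2.41% in the range before.

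Cells positive for Sval1 were mostly also positive for Klk1. Of Sval1-positive cells, 79.5% in WT and 82.4% in Tipe0-/- were also positive for Klk1, against 34.4% and 28.5% of Sval1-negative cells. Both genes lay at high mucus share, with medians of 20.1% and 32.0% in Sval1-positive cells. Within the range of 15% and over the shares were close in WT, 21 of 28 Sval1-positive (75%, 55.1 to 89.3%) and 51 of 71 Sval1-negative cells (71.8%, 59.9 to 81.9%), and in Tipe0-/- 84.6% and 63.3%, with overlapping intervals. Among WT cells with a mucus share of 15% and over, 12 of 65 Retnlb-positive cells were Ido1-positive (18.5%, 9.92 to 30.0%) and 17 of 34 Retnlb-negative cells (50%, 32.4 to 67.6%). The 2 intervals do not overlap, the median mucus share was 24.4% and 24.7%, and the cells come from 1 library. In Tipe0-/- 2 cells of that range were Retnlb-positive, too few to compare.

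Cells positive for each gene differed in other genes as well, described here without a test because the cells were divided by their own transcripts. Retnlb-positive cells had more of Reg4, a C-type lectin of goblet and Paneth cells, with 290 against 12.5 CPM in WT and 397 against 58.2 CPM in Tipe0-/-, more Ang4 (6304 against 1080 and 946 against 212 CPM) and more Itln1, the lectin intelectin (2106 against 378 and 2594 against 441 CPM). Paneth transcripts went with them, Defa24 being at 24605 against 3975 CPM and 41396 against 4453 CPM, and their part was not tested. They had less Apoa1 (338 against 926 and 17.9 against 615 CPM). Sval1-positive cells had less Stmn1, a tubulin regulator of dividing cells, with 10.7 against 200 and 20.7 against 325 CPM. Their median mucus share was also higher, 20.1% against 3.42% in WT and 32.0% against 3.67% in Tipe0-/-. Over all goblet cells Stmn1 fell from 341 and 473 CPM at a mucus share of 1 to 2% to 16.6 and 14.4 CPM at 15% and over. The part of mucus share in this difference was not tested.

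Ido1-positive cells lay at the highest mucus share, with a median of 31.3% in WT and 43.5% in Tipe0-/-. They had more Cldn4, a tight junction protein (168 against 15.3 CPM in WT and 292 against 22.8 CPM in Tipe0-/-), more Clca4a (296 against 14.3 and 266 against 25.3 CPM) and more Saa1 (2796 against 380 and 824 against 53.3 CPM), and less of the cell cycle gene Ccnd1 (20.4 against 248 and 8.58 against 277 CPM). Against Ido1-negative cells of the same range of 15% and over, the 29 WT and 22 Tipe0-/- positive cells had more of the interferon genes Ifit1bl1 (384 against 124 and 301 against 57.3 CPM) and Oasl1 (102 against 38.7 and 107 against 41.7 CPM). They had less Rps7, which encodes a ribosomal protein (64.1 against 493 and 87.5 against 550 CPM) and Rpl3 (57.7 against 351 and 29.1 against 310 CPM). These sums rest on few UMIs, 10 and 9 for Rps7 in the positive cells, and the positive cells had a higher median mucus share within the range (32.2% against 21.7% in WT and 44.4% against 27.9% in Tipe0-/-).

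Transcripts of further cell types were also present in goblet cells, and their part in the results above was not tested. Enterocyte genes summed to 10841 CPM in WT and 8163 CPM in Tipe0-/-, with Fabp6, the ileal bile acid binding protein, at 7244 and 5079 CPM and Lct at 0 in both. Tuft cell genes summed to 772 and 654 CPM, mostly Krt18, with Il25 at 0. Enteroendocrine genes summed to 361 and 255 CPM, mostly Sct at 209 and 216 CPM, with Tph1 and Scg5 at 0 in both. Lymphocyte genes summed to 177 and 79.3 CPM, mostly Ccl5, and 4 of 4 measured ones were at least 2-fold lower in Tipe0-/-, beside 1.56% of all genes. Only these 4 of the 15 in the files reached 50 UMIs. Below that, Cd3e had 13 and 11 UMIs (log2 ratio 0.02) and Cd3d 19 and 5 (-1.57), so the list was not uniform. The top 5 cells held 45.9% of the Ccl5 UMIs in WT and 74.0% in Tipe0-/-. Its log2 ratio was -0.01, -2.49, -0.87 and 0.31 from the lowest mucus range to the highest. Taken as groups, lymphocyte, interferon and class II genes were thus each lower in Tipe0-/- goblet cells, and the part of one in the others was not tested either. Genes of fibroblasts, endothelium, myeloid and red cells summed to 50.2 CPM in each, with Col1a1, Col1a2, Dcn, Cdh5 and C1qb at 0 in both.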

How the data were processed

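The 2 libraries were made on the Chromium System, aligned to mm10 and counted with Cell Ranger. The methods also describe merging the libraries at equal mapped read depth, and whether this touched the separate files used here is not given in the sources. The deposited values are whole UMI counts of 27998 genes per cell, and every cell in the files was used, with no further filter and no doublet caller.

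Counts of goblet cells and of all other cells were summed per library and given as CPM. Log2 ratios have 0.5 added to each sum and exact binomial intervals, and genes needed 50 UMIs over both groups compared. Where intervals of a list are counted beside those of all genes, the 2 sets were not matched for abundance. A share of 0 was given the limit of 3 counts. CPM is a share of each sum, so abundant mucus transcripts lower every other gene. Genes were named by rule: the rule genes, Lyz1, Tnfaip8 and the 4 dividing genes, the 25 highest over other cells, the 15 largest ratios in each direction at 100 CPM or more, 8 per dividing gene and direction, and from each gene list the 4 most abundant and 2 largest in each direction. A few further list members were named after their values were seen (H2-DMa, St3gal3, St6galnac6, Hes1, Socs1). The members and lists were chosen with earlier results of these data known. Positions are those of GENCODE on GRCm38, the assembly behind mm10. The ratio step was tested on simulated counts. Python 3.11.15, numpy 2.4.6, scipy 1.17.1, pandas 2.3.3 and matplotlib 3.10.9 were used. Other thresholds, scalings, thinned cells and UMI minimums were tried as alternatives.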

Additional observations from a re-analysis of the deposited data

Results flagged for a closer look

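In 5 genes the log2 ratio of Tipe0-/- over WT had opposite signs in goblet cells and in all other cells, with both counting intervals apart from 0. Against the median shift of 0.14 in goblet and 0.15 in other cells, the values of Fabp6, Apoa1 and Defa20 lie lower in both. For Tff3 it was -0.19 in goblet cells and 0.40 in other cells, for Fabp6 -0.51 and 0.07, for Apoa1 -0.18 and 0.08, and for Defa20 0.10 and -0.06. The goblet signs of these 4 genes depend on the cells taken. Tff3 is a rule gene, so its levels helped to divide goblet from other cells, and its goblet ratio was 0.02 at a mucus share of 1 to 2% and 0.01 as a mean of each cell's CPM. At a mucus threshold of 5% Fabp6 was at 0.36 and Apoa1 at 0.57. Defa20 was at 1.16 at a mucus share of 1 to 2% and between -1.17 and -0.53 in the other ranges, and at -0.73 without Paneth-rich cells. Jchain, the joining chain of antibodies, had 3.14 and -2.14, but 106 of its 107 UMIs in Tipe0-/- goblet cells were in 1 cell. The difference was not tested for any of the 5, as each genotype has 1 library.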

How the results depend on the processing

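The goblet share difference of 3.58 percentage points ranged from 2.05 to 3.93 over the other thresholds and rules, including the rule applied after thinning. It was 6.73 without cells in which Paneth genes other than Ang4 reached 1%. That alternative was added after seeing the data, as were the mucus ranges. The count of genes at least 2-fold higher in Tipe0-/- (203) was 125 at a mucus threshold of 5%, 116 when scaled by the median ratio, 85 in thinned cells, 350 at 20 UMIs and 27 at 200 UMIs. The count of lower genes (141) was 77 at 5%, 85 thinned, 240 at 20 UMIs and 70 at 200 UMIs. The median ratio is 0 by construction when scaled by it. The count of genes higher than in other cells (266) was 458 at 5% and 168 at 200 UMIs. The Retnlb share difference was -57.5 with 1 UMI, -59.2 without thinning, -52.2 at 2%, -61.8 at 5% and -29.7 without Paneth-rich cells. That of Sval1 was -8.79 at 5%, and that of Klk1 -15.9 at 5% and 0.99 with 1 UMI, a reversal, and without Paneth-rich cells they were -2.50 and -2.33. Of 50 named genes past 2-fold, 47 kept 1 direction and 29 stayed past 2-fold under each setting not added after seeing the data. These counts leave out the mucus ranges and the removal of Paneth-rich cells. Without Paneth-rich cells Defa24, for example, was at -0.78 and no longer past 2-fold. Over the mucus ranges, where a gene had at least 20 UMIs, 48 of the 50 kept 1 direction. Reversals were Ccl5 (0.31 at 15% and over), Chgb (0.28 at a threshold of 0.5%), Myc (-0.48 at 5%) and Smoc2 (-0.26 at 5% and -0.38 at 5 to 15%), and the cause was not tested. Low counts limit genes near 50 UMIs and cells near 3000. No paired analysis was possible because each genotype has 1 library.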

Other observations

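Tac1, which encodes the neuropeptide substance P, was at 101.4 CPM in WT and 20.6 CPM in Tipe0-/- goblet cells, a log2 ratio of -2.29 (-2.63 to -1.98). In WT its 544 UMIs lay in 209 goblet cells and the top cell held 2.02% of them, so they were spread widely. The peptide hormone gene Pyy had 87 of its 92 WT UMIs in 1 of the 5 goblet cells with any. Sct, the secretin gene, was at 209 and 216 CPM and was seen in 346 WT and 279 Tipe0-/- goblet cells. The other members of the TNFAIP8 family were low, Tnfaip8l3 at 21.8 and 12.0 CPM and Tnfaip8l1 at 8.76 and 12.2 CPM. Hemoglobin Hbb-bs had 55 UMIs in each library's goblet cells, of which 39 in WT and 40 in Tipe0-/- were in 1 cell.

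Clca3b, a relative of Clca1, was at 95.1 CPM in WT and 178 CPM in Tipe0-/- goblet cells (0.91, 0.74 to 1.07), the opposite direction to Clca1. Unlike Clca1 it was lower in goblet than in other cells, with log2 ratios of -0.98 in WT and -0.63 in Tipe0-/-, and highest at a mucus share of 1 to 2% (151 and 269 CPM). Of 21 immediate early and dissociation genes 1 was at least 2-fold higher in Tipe0-/- goblet cells and 1 lower, near the background of 2.25% and 1.56%, with a median log2 ratio of 0.12.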
